A study of Mus musculus with 24 samples.

Results

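The genes described here are 10 members of the Hippo pathway and its output in mouse liver organoids: the coactivators Yap1 and Wwtr1, their DNA-binding partners Tead1, Tead2 and Tead4, the target genes Ankrd1, Axl and Amotl2, the LIM protein gene Ajuba and the kinase gene Lats2. They were chosen by symbol, with earlier results of these data known. Each symbol was found in all 3 expression tables of the study, which list 31053, 25876 and 20729 genes. The study cultured organoids from the livers of adult wild-type BALB/c mice and measured poly(A) RNA in 24 libraries that fall into 10 groups. The first table holds the libraries labelled primary hepatocytes (Pri-Hep) and the hepatocyte organoids (Hep-Orgs) of passages P1, P5 and P10, 3 libraries per group. Hepatocytes were the EpCAM-negative fraction of a Percoll pellet, and these Hep-Orgs grew in Hep-Med with the Notch inhibitor DAPT and dexamethasone. The second table holds cholangiocyte organoids (Cho-Orgs) grown from EpCAM+ cells, again 3 libraries for each of the passages P0, P5 and P10. The third holds 3 Smart-Seq libraries of P0 Hep-Orgs that were picked by shape from cultures in Hep-Med, 1 for the grape-like, 1 for the intermediate and 1 for the round-like form. The media of both organoid types contained R-spondin1, EGF, HGF, the TGFβ receptor inhibitor A83-01 and the ROCK inhibitor Y-27632, so every organoid group shares them. Hep-Med also contained CHIR99021 and FGF7, whereas the Cho-Orgs medium contained Wnt3a, noggin and forskolin and no DAPT or dexamethasone.

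The Hippo pathway is a kinase cascade in which MST1 and MST2 activate LATS1 and LATS2, and the LATS kinases phosphorylate YAP and TAZ (the product of Wwtr1) and so keep them out of the nucleus. Unphosphorylated YAP and TAZ enter the nucleus, bind TEAD factors and turn on genes such as Ankrd1, Ccn1, Ccn2, Axl and Amotl2, some of which feed back on the cascade. In the adult liver YAP is high in cholangiocytes and low in hepatocytes, and high YAP activity in hepatocytes gives them biliary features. RNA levels report neither the phosphorylation nor the location of these proteins.

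TEAD factors bind the motif GGAATG, and the 250 bases before the RefSeq start (GRCm38.p6) of each member were searched for it on both strands, where it reads CATTCC on the other strand. A window was found for 8 of the 10 members, and 6 of these held the motif, compared with 14.4% of the 27025 genes with a window. It was not found in the windows of Tead2 and Lats2. The 8 sites are printed because they lie before the RefSeq starts of the coactivators and of the targets on which the comparisons turn. Each is printed 5′ to 3′ along the strand that reads GGAATG, as 30 bases with the motif in capitals. The distance given is from the RefSeq start to the farthest base of the motif. This start can differ from the end of the gene in the coordinates printed further below. For Amotl2, Lats2 and Tead2 it lies inside those coordinates, and so does the Amotl2 site.
Yap1, chr9:8004720-8004749 (-), 141 bases: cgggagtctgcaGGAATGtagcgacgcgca
Wwtr1, chr3:57576029-57576058 (-), 136 bases: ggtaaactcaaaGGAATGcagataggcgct
Ankrd1, chr19:36120037-36120066 (-), 210 bases: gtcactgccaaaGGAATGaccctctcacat
Ankrd1, chr19:36119950-36119979 (-), 123 bases: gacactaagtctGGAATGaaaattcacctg
Axl, chr7:25788949-25788978 (-), 233 bases: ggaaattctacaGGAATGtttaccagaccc
Amotl2, chr9:102717727-102717756 (-), 65 bases: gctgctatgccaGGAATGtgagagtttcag
Ajuba, chr14:54577830-54577859 (+), 186 bases: gaggggcactgtGGAATGtatccatcaacg
Ajuba, chr14:54577808-54577837 (+), 164 bases: ttgtttacagttGGAATGcgcggaggggca
In Yap1, Wwtr1, Ankrd1 and Axl the motif was on the strand of the gene, and in Amotl2 and Ajuba it was on the opposite strand. A T followed the motif in 4 of the 8 sites, and both Ankrd1 sites and the Amotl2 site overlapped an exon of another transcript of the same gene. A match of these letters is a description of the sequence and shows no binding. Ajuba, with its pair of sites, is also shown as the whole window (chr14:54577662-54577911, - strand, 5′ to 3′ towards the gene, motif in capitals), since it gave the smallest adjusted p-values among the members in Cho-Orgs.
Ajuba window: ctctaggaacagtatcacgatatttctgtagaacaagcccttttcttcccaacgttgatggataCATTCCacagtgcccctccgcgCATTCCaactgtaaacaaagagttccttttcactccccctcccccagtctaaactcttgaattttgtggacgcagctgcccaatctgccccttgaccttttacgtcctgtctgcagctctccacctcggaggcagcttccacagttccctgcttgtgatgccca

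Levels are given as FPKM, fragments scaled to gene length and library depth, which is per length and so allows genes of one library to be compared. The tables were normalised separately and were never fitted together. Depth was 14068906 to 27160365 fragments per library in the hepatocyte table, and an estimated 37620000 to 40010000 and 40070000 to 40390000 in the Cho-Orgs and Smart-Seq tables. Before the members are described, the labels were checked against markers. All 12 libraries of the hepatocyte table, including those labelled Pri-Hep, listed Alb at 106 to 128 FPKM beside Krt19 at 229 to 247, Epcam at 261 to 281 and Spp1 at 3020 to 3237 FPKM, and listed Cyp2e1 at 0 to 0.0300 FPKM. The summed level of 10 cholangiocyte markers was 4394 to 4603 FPKM in these libraries and that of 10 hepatocyte markers 605 to 666 FPKM. Adult hepatocytes carry abundant albumin and Cyp2e1 RNA and lack Krt19, so the libraries labelled Pri-Hep went against their label, and comparisons with them are named by the label only. The Hep-Orgs libraries of this table had these markers at nearly the same levels, so the name Hep-Orgs is likewise used as a label here. In bulk RNA, fewer cells of a type and less RNA per cell cannot be told apart.

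Across Cho-Orgs passages, most members differed, and so did 56.6% to 72.3% of all genes tested, depending on the comparison. Ajuba, Amotl2, Wwtr1, Tead4 and Lats2 were higher at P5 and at P10 than at P0, Tead2 was lower at both, and Yap1 had passage means of 29.8, 34.2 and 30.8 FPKM, highest at P5. All 3 comparisons share libraries, so they are not independent of each other. The members were tested with limma on log2(FPKM + 1) over 11593 genes, with p-values adjusted over all of these genes. Axl was below the filter for testing, which left 9 members. Fold changes are on the log2(FPKM + 1) scale, which understates changes of low genes.

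Yap1 (9:7931999-8004596 in the deposited annotation) encodes the coactivator itself. Its level was 29.2, 30.5 and 29.6 FPKM in the 3 P0 libraries, 34.9, 33.6 and 34.0 at P5 and 31.0, 30.9 and 30.5 at P10. The P5 libraries were the highest, with no overlap with either other passage, and the P10 libraries overlapped only with P0 replicate 2. The log2 fold change was 0.19 (SE 0.042, adjusted p = 0.0032) for P5 against P0 and -0.15 (adjusted p = 0.0125) for P10 against P5, whereas P10 against P0 gave 0.05 (95% interval -0.05 to 0.14, adjusted p = 0.332). The rise from P0 to P5 was lost with median-ratio scaling (0.11, adjusted p = 0.0538). Wwtr1 (3:57455649-57575910) encodes TAZ, the paralog of YAP. Its level was 17.7, 18.9 and 17.4 FPKM at P0, 25.2, 27.1 and 26.7 at P5 and 30.0, 28.2 and 29.6 at P10, and no passage overlapped another. Wwtr1 rose by 0.53 (SE 0.053, adjusted p = 2.7e-05) from P0 to P5 and by 0.67 (adjusted p = 1.86e-06) from P0 to P10. The step from P5 to P10 was 0.15 (adjusted p = 0.0342). That last call was lost with the replicate number as a block (adjusted p = 0.0604), after rescaling to TPM (adjusted p = 0.0543) and when P5 replicate 1 or 3 or P10 replicate 1 or 3 was left out (adjusted p up to 0.123). The Yap1 to Wwtr1 ratio of FPKM was 1.66 ± 0.0473 at P0, 1.30 ± 0.0766 at P5 and 1.05 ± 0.0373 at P10 (SD, n = 3).

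The TEAD genes encode the DNA-binding factors, which carry no strong activation domain of their own. Tead1 (7:112679318-112906807) was at 8.33, 9.66 and 8.26 FPKM at P0, 8.69, 8.70 and 8.45 at P5 and 15.5, 15.2 and 14.1 at P10. The P5 libraries lay within the range of P0 and every P10 library was above them. The log2 fold change was -0.02 (adjusted p = 0.84) for P5 against P0, 0.71 (adjusted p = 5.89e-06) for P10 against P0 and 0.73 (adjusted p = 1.19e-05) for P10 against P5. Tead2 (7:45215753-45233644), a form best known from early embryos, was at 10.7, 13.7 and 9.71 FPKM at P0, 6.85, 6.34 and 6.35 at P5 and 6.54, 6.39 and 5.52 at P10. Every P0 library was above every later one, and Tead2 fell by 0.71 (SE 0.11, adjusted p = 0.000435) by P5 and by 0.78 (adjusted p = 0.000118) by P10. Between P5 and P10 it gave -0.07 (95% interval -0.32 to 0.17, adjusted p = 0.581). Tead4 (6:128224288-128300823), known for its part in the trophectoderm, was at 6.08, 4.60 and 4.70 FPKM at P0, 10.6, 9.44 and 11.3 at P5 and 10.8, 10.1 and 10.2 at P10. The later passages overlapped each other and lay above all P0 libraries. Tead4 rose by 0.91 (adjusted p = 3.78e-05) from P0 to P5 and 0.90 (adjusted p = 1.72e-05) from P0 to P10, with -0.01 (95% interval -0.23 to 0.20, adjusted p = 0.917) between P5 and P10.

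**Figure D1:**
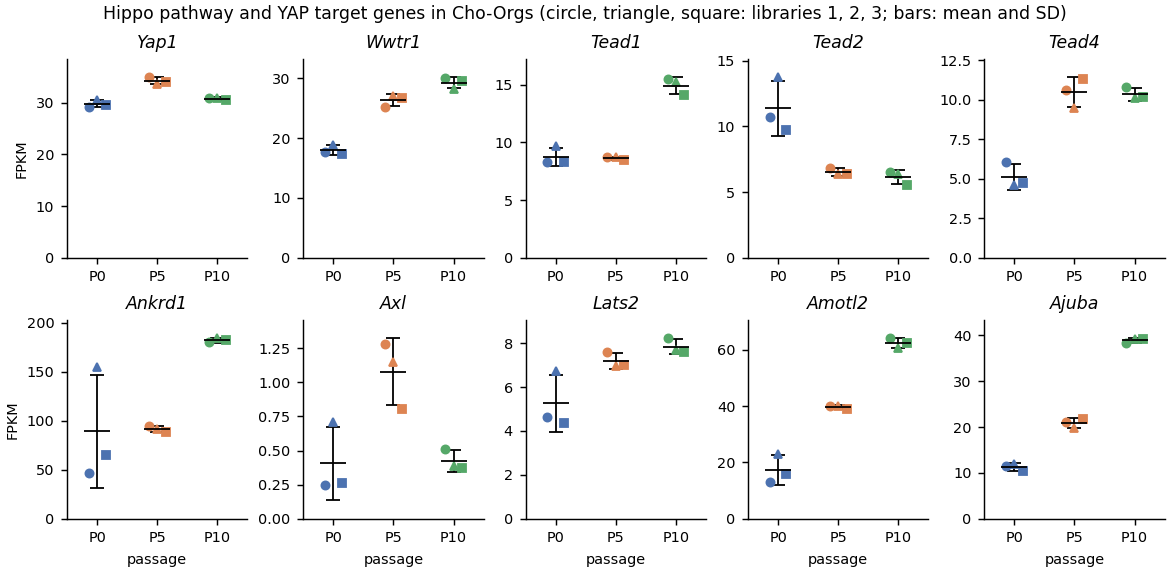
FPKM of each of the 10 members in the 9 Cho-Orgs libraries by passage (P0, P5, P10; 3 libraries each, points), with the group mean and SD. Amotl2 and Ajuba stepped up at each passage, from means of 17.2 to 39.7 to 62.4 FPKM and 11.3 to 20.8 to 38.9 FPKM, and the P0 points of Ankrd1 ran from 46.3 to 155 FPKM.

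Seen as shares, the TEAD family as a whole had nearly the same summed level at P0 and P5, 32.1 ± 2.73 and 32.3 ± 1.36 FPKM (SD, n = 3), and 39.1 ± 2.05 FPKM at P10, but its make-up differed. Tead2 made up 35.3% ± 3.44 (SD, n = 3) of the sum at P0, 20.2% ± 0.269 at P5 and 15.7% ± 0.719 at P10. Tead4 made up 16.1% ± 3.11 at P0, 32.4% ± 2.66 at P5 and 26.5% ± 0.875 at P10. The leading paralog was thus Tead2 at P0, Tead4 at P5 and, at 38.2% ± 0.577, Tead1 at P10. Tead3, the remaining paralog, stayed between 19.6% and 21.3% as a mean. The share values were a description and carried no test.

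**Figure D2:**
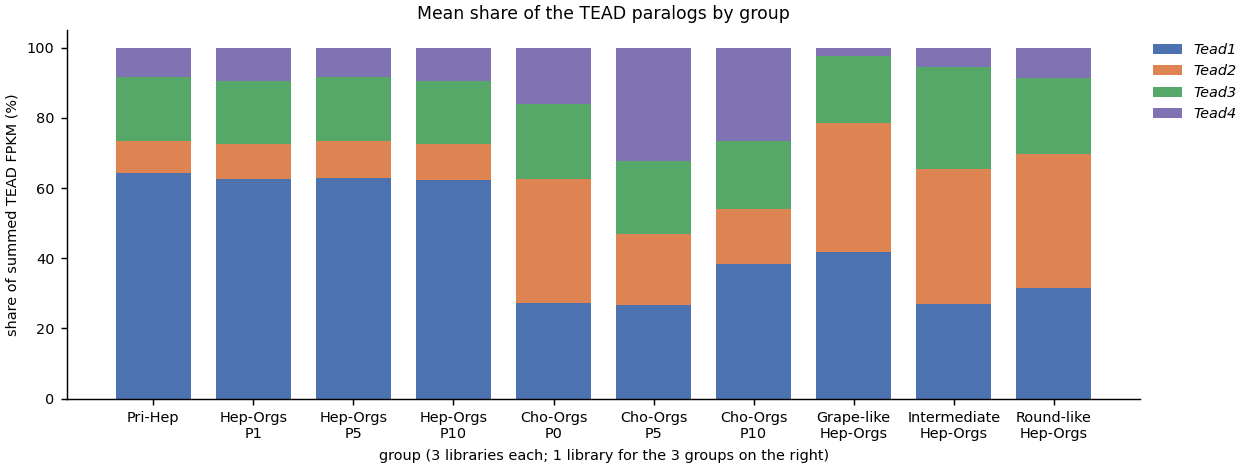
Share of the summed FPKM of Tead1, Tead2, Tead3 and Tead4 held by each paralog, in percent, as 1 stacked bar per group (mean of 3 libraries, or the 1 library of each Smart-Seq group; no error bars). Tead1 fills most of each bar of the hepatocyte table, where its share was 61.3% to 66.5% in all 12 libraries, while in Cho-Orgs the Tead2 share went from a mean of 35.3% at P0 to 15.7% at P10.

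Of the target genes, Ankrd1 (19:36111965-36119844) encodes a nuclear and sarcomeric ankyrin-repeat protein and is a common readout of YAP activity. It was at 46.3, 155 and 65.5 FPKM at P0, 94.3, 91.6 and 88.4 at P5 and 180, 184 and 182 at P10. P0 replicate 2 lay far above the other P0 libraries and above all P5 libraries, while every P10 library was above every other library. P10 against P0 gave a log2 fold change of 1.21 (adjusted p = 0.00821), and P10 against P5 gave 0.99 (adjusted p = 0.0271). The call from P5 to P10 was lost when any P5 or P10 library was left out (adjusted p up to 0.0691) and when all genes above 0 FPKM were tested (adjusted p = 0.0816), whereas with P5 and P10 alone in the fit the adjusted p was 1.19e-07. The fit of all passages used 1 shared estimate of the spread, which included the P0 libraries. The SD of Ankrd1 was 58.1 FPKM at P0, 2.95 at P5 and 2.225 at P10 (n = 3). P5 against P0 gave 0.23 (95% interval -0.52 to 0.98, adjusted p = 0.582), and this value rested on 1 library: without P0 replicate 2 it was 0.72 (adjusted p = 0.000572) and without P0 replicate 1 it was -0.14. P0 replicate 2 was at least 0.5 (log2) above both other P0 libraries in 234 genes (2.02% of 11593), among them 2 of the 9 members and 3 of 16 further YAP target genes. In P0 replicates 1 and 3 that share was 1.41% and 0.768%, with 2 and 0 of the 16 target genes and 0 of the 9 members. The share was at most 0.181% in the P5 and P10 libraries.

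Amotl2 (9:102716672-102733418) encodes an angiomotin-family protein that binds YAP and holds it at junctions, and it is also a YAP target. Its level was 12.9, 23.1 and 15.7 FPKM at P0, 40.0, 40.0 and 38.9 at P5 and 64.1, 60.7 and 62.3 at P10. The passages did not overlap, although P0 replicate 2 was again the highest of its group. Amotl2 rose by 1.19 (SE 0.16, adjusted p = 0.000148) from P0 to P5, by 0.64 (adjusted p = 0.00531) from P5 to P10 and by 1.83 (adjusted p = 3.32e-06) from P0 to P10. With each library left out in turn, the P0 to P10 value ran from 1.66 to 2.05. Axl (7:25757273-25788705), a receptor tyrosine kinase for GAS6, was low in all Cho-Orgs. It was at 0.245, 0.711 and 0.259 FPKM at P0, 1.28, 1.15 and 0.803 at P5 and 0.512, 0.383 and 0.374 at P10. The P5 libraries were above all others, and the P0 and P10 ranges overlapped. In a fit that kept all genes above 0 FPKM, Axl gave 0.57 (adjusted p = 0.0149) for P5 against P0, -0.54 (adjusted p = 0.0181) for P10 against P5 and 0.03 (adjusted p = 0.910) for P10 against P0.

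Ajuba (14:54567472-54577558) encodes a LIM-domain protein that binds LATS kinases and limits their action on YAP. It was at 11.5, 12.03 and 10.4 FPKM at P0, 21.2, 19.7 and 21.7 at P5 and 38.3, 39.2 and 39.2 at P10, with no overlap and little spread. Ajuba rose by 0.83 (SE 0.060, adjusted p = 3.23e-06) to P5, by 0.87 (adjusted p = 2.25e-06) from P5 to P10 and by 1.70 (adjusted p = 1.15e-08) from P0 to P10. Lats2 (14:57689662-57758388) encodes 1 of the LATS kinases and is also induced by YAP. It was at 4.65, 6.74 and 4.38 FPKM at P0, 7.59, 6.97 and 7.00 at P5 and 8.23, 7.67 and 7.60 at P10. Only P0 replicate 2 came near the later libraries, and the highest P5 library was just below the lowest P10 library. Lats2 gave 0.41 (SE 0.12, adjusted p = 0.0153) for P5 against P0, a call that was lost without P0 replicate 3 (adjusted p = 0.0549) or P5 replicate 1 (adjusted p = 0.0541). P10 against P0 gave 0.52 (adjusted p = 0.00306) and P10 against P5 gave 0.11 (95% interval -0.16 to 0.38, adjusted p = 0.448). Lats2 shares 2955 exon bases on the same strand with the annotated gene Gm49361, so its level is uncertain.

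As counts, 7 of the 9 members tested passed between P0 and P5, 6 higher and 1 lower, where 56.6% of all genes tested passed (34.0% higher, 22.6% lower). Between P0 and P10 it was 8 of 9, 7 higher and 1 lower, against 72.3% of all genes (41.0% higher, 31.3% lower). Between P5 and P10 it was 6 of 9, 5 higher and 1 lower, against 61.5% of all genes (31.0% higher, 30.5% lower). With so many genes past the threshold, the counts alone are not a result about the members. The members' median log2 fold change was 0.41, 0.71 and 0.15 in the 3 comparisons, beside 0.06, 0.07 and 0.01 over all genes tested. Members and further lists were chosen with earlier results of these data known, so such medians are a description and carried no test. Of the genes that passed between P0 and P5, 60.0% were higher at P5, and with median-ratio scaling this share was 47.2%.

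The other Hippo pathway genes were taken from a list of 29, of which 27 were tested. From P0 to P5, 10 were higher and 4 lower (median 0.10), where 56.6% of all genes passed. From P0 to P10, 16 were higher and 4 lower (median 0.23; 72.3% of all genes passed), and from P5 to P10, 11 were higher and 3 lower (median 0.10; 61.5% of all genes passed). The highest by mean level was Wwc1, which encodes KIBRA, an upstream activator of the LATS kinases. Wwc1 was at 57.5, 69.1 and 63.1 FPKM at P0, 64.8, 63.0 and 65.3 at P5 and 122, 117 and 115 at P10, and only P10 stood apart, with a log2 fold change of 0.89 against P0 (adjusted p = 1.05e-06). Next by level was Mob1a, a LATS cofactor, with means of 28.5, 35.1 and 39.4 FPKM. Scrib, a polarity scaffold, rose by 0.87 from P0 to P10, and Sav1, the scaffold of the MST kinases, rose by 0.42 to P5 and by 0.76 to P10. Wwc2, a paralog of Wwc1, rose by 0.68 to P10, while Rassf1, Slmap and Fat1 rose by 0.55, 0.42 and 0.42 from P0 to P5.

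On the other side, Vgll4 encodes a protein that competes with YAP for TEAD. It was at 21.2, 18.6 and 20.4 FPKM at P0, 14.8, 15.5 and 15.5 at P5 and 9.28, 8.76 and 8.74 at P10, with no overlap between passages. Vgll4 fell by 0.37 from P0 to P5 (adjusted p = 0.000463), by 0.71 from P5 to P10 (adjusted p = 6.23e-06) and by 1.08 from P0 to P10 (adjusted p = 1.39e-07). Amotl1, a paralog of Amotl2, moved opposite to it, with -0.51 from P0 to P5 and -0.83 from P0 to P10. Its step from P5 to P10, -0.32, passed narrowly (adjusted p = 0.0473) and was lost with median-ratio scaling (adjusted p = 0.0567), with all genes above 0 FPKM (adjusted p = 0.114) and without P0 replicate 3 or any 1 of the P5 and P10 libraries (adjusted p up to 0.123). Amot, the third of these paralogs, gave -0.18 from P0 to P5, a narrow call (adjusted p = 0.0494) that was lost with the replicate block (adjusted p = 0.0716), with either other filter, and without any 1 library except P0 replicate 1 (adjusted p up to 0.163), and it rose by 0.59 from P5 to P10 (adjusted p = 6.28e-05). Limd1, a LIM protein related to Ajuba, fell by 0.21 to P5 and by 0.18 to P10, and Stk4, which encodes MST1, fell by 0.23 from P0 to P10 and by 0.21 from P5 to P10.

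A list of 18 further YAP target genes, none of them a member, had 16 that were tested. From P0 to P5, 11 were higher and 1 lower (median 0.58), where 56.6% of all genes passed. From P0 to P10, 12 were higher and 1 lower (median 0.78), where 72.3% passed. From P5 to P10 the list was split, with 6 higher and 3 lower (median 0.08), where 61.5% passed. The matricellular genes Ccn1 and Ccn2, the highest of the list by level, had their highest values at P5. Neither passed as lower for P10 against P5. Ccn2 was at 92.9, 153 and 84.7 FPKM at P0, 335, 305 and 343 at P5 and 261, 253 and 254 at P10, so no passage overlapped another, and the log2 fold change from P0 to P5 was 1.61 (adjusted p = 4.76e-05). Ccn1 was at 58.4, 89.5 and 50.9 FPKM at P0, 136, 137 and 140 at P5 and 117, 114 and 114 at P10. Neither followed Amotl2 and Ajuba upwards from P5 to P10.

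Among the other targets, Gadd45a, a stress-response gene, was at 13.0, 19.7 and 14.6 FPKM at P0, 30.2, 30.4 and 29.3 at P5 and 104, 111 and 106 at P10, and it rose by 2.70 from P0 to P10 (adjusted p = 3.82e-08). Nt5e, the ectonucleotidase CD73, was under 1 FPKM at P0 (mean 0.117) and at 2.60 and 3.53 FPKM at P5 and P10. Myof, a membrane-repair protein, had means of 27.5, 80.8 and 91.3 FPKM, and the kinase gene Nuak2 had means of 2.97, 3.86 and 8.49 FPKM. Ccdc80, a matrix protein gene, rose by 1.16 from P0 to P5, and its fall of 0.54 from P5 to P10 (adjusted p = 0.0284) was lost with a pseudocount of 0.1 (adjusted p = 0.0554), with all genes above 0 FPKM (adjusted p = 0.0818) and without any 1 of the P5 and P10 libraries (adjusted p up to 0.0831). Fjx1 fell by 0.61 to P5, a call lost without P5 replicate 2 (adjusted p = 0.0528), and then rose by 1.66 to P10. Crim1 rose by 0.38 and Dock5 fell by 0.22 from P5 to P10. Igfbp3, which encodes an IGF-binding protein, moved against the list: it was at 33.0, 55.1 and 35.9 FPKM at P0, 35.3, 34.6 and 37.5 at P5 and 14.9, 13.7 and 15.02 at P10, and it fell by 1.41 from P0 to P10 (adjusted p = 2.01e-05).

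**Figure D3:**
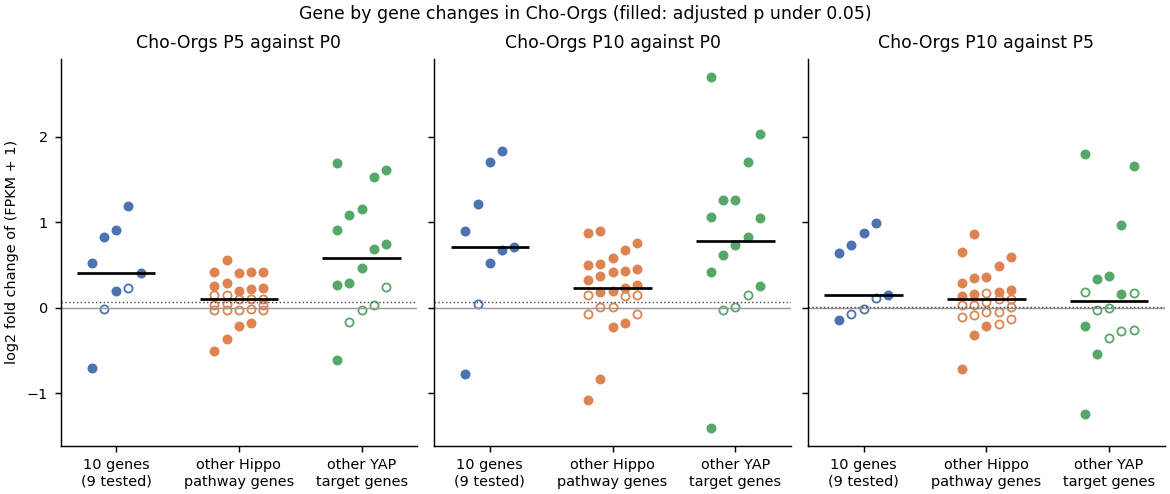
Log2 fold change of log2(FPKM + 1) for each tested gene of the members (9), the further Hippo pathway genes (27) and the further YAP target genes (16) in the 3 Cho-Orgs comparisons. Filled points passed at an adjusted p of 0.05 (limma), the black line is the list's median and the dotted line the median of all genes tested; the target list's median sits at 0.58 and 0.78 against P0 and at 0.08 for P10 against P5.

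Other RNAs differed over the same passages. The sum of 10 hepatocyte markers was 7208 to 8020 FPKM at P0, 206 to 253 at P5 and 77.8 to 83.5 at P10, with Alb at means of 4994, 79.5 and 0.584 FPKM and Cyp2e1 listed at 0 in every P5 and P10 library. Proliferation markers (10 genes) summed to 349 to 508 FPKM at P0, 195 to 200 at P5 and 75.6 to 83.1 at P10. The 10 cholangiocyte markers summed to 5217 to 6594 FPKM at P0, 3802 to 4000 at P5 and 3739 to 3770 at P10. They did not move together, and the sum follows the most abundant of them. Between P0 and P10, 5 were higher and 4 lower (limma, adjusted p under 0.05), where 41.0% and 31.3% of all genes were. Their median log2 fold change was 0.12. Whether these differences had a part in those of the members was not tested. All 10 stellate and mesenchymal markers were under 1 FPKM as a mean in every passage, summing to at most 1.29 FPKM. The sum of 10 Kupffer cell and macrophage markers was 43.4 to 49.0, 72.1 to 77.3 and 10.1 to 10.5 FPKM at the 3 passages, with 7 of the 10 at 0 at P5 and at P10, among them Lyz2. For 10 liver sinusoidal endothelial markers the sum was 17.9 to 19.1, 17.8 to 20.5 and 8.02 to 9.01 FPKM. At every passage 9 of these 10 were under 1 FPKM as a mean, so the sum rested mostly on the remaining gene. Of the macrophage markers, 8 were under 1 FPKM at P0 and 9 at P5 and at P10, so few genes carried that sum too.

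In the hepatocyte table, no difference between groups was detected for any member, in a table in which hardly any gene differed. Yap1 was at 15.5, 15.1 and 15.3 FPKM in the libraries labelled Pri-Hep, 14.95, 14.86 and 14.54 in Hep-Orgs P1, 15.2, 14.7 and 15.3 at P5 and 15.1, 15.2 and 15.1 at P10. The groups overlapped except that every P1 library was below every Pri-Hep and P10 library. Over the 12 libraries Yap1 varied by 1.77% (coefficient of variation), and counting error alone gives 1.98%. Ankrd1 was at 82.5, 81.1 and 82.1 FPKM in the libraries labelled Pri-Hep, 79.0, 83.6 and 81.6 at P1, 77.6, 79.5 and 78.6 at P5 and 80.8, 79.6 and 81.7 at P10, and the P5 libraries were among the lowest.

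The other members ran over narrow ranges across the 12 libraries. Wwtr1 was at 17.2 to 19.0 FPKM and Tead1 at 17.4 to 19.2 FPKM. Amotl2 was at 22.9 to 24.3 FPKM and Ajuba at 8.71 to 10.3 FPKM. The lowest tested members were Tead2 (2.53 to 3.22 FPKM), Lats2 (2.41 to 3.14 FPKM) and Tead4 (2.09 to 2.98 FPKM), whose ranges overlapped, and Axl (0.389 to 0.686 FPKM, 34 to 94 fragments) was below the filter. By level, Ankrd1 stood far above all others and Amotl2 came next. Wwtr1 and Tead1 could not be ordered, since both had a mean of 18.1 FPKM, and Yap1 followed at a mean of 15.1. The Yap1 to Wwtr1 ratio was 0.822 to 0.847 as a group mean, so Wwtr1 was the higher of the pair here. Yap1 was the higher in all Cho-Orgs libraries, but also in the Smart-Seq libraries of Hep-Orgs (ratio 1.82 to 2.76). The tables differ in medium and in the genes listed, and Smart-Seq also in library protocol, so the ratio cannot be tied to the kind of organoid. Tead1 held 61.3% to 66.5% of the summed TEAD FPKM and Tead4 7.33% to 10.1%. Of the further genes, Ccn2 was at 133 to 143, Ccn1 at 39.8 to 42.6, Wwc1 at 74.3 to 77.9 and Mob1a at 42.4 to 45.9 FPKM.

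**Figure D4:**
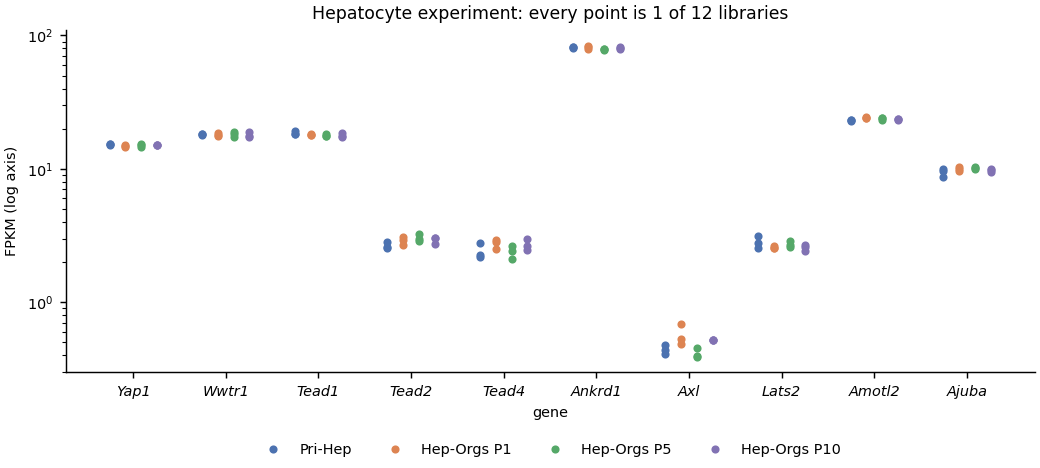
FPKM of each of the 10 members in the 12 libraries of the hepatocyte table, on a log axis, with 1 point per library and 1 colour per group (libraries labelled Pri-Hep, and Hep-Orgs P1, P5 and P10; 3 points each). The groups of each gene sit at nearly the same level, with Yap1 between 14.5 and 15.5 FPKM and Ankrd1 between 77.6 and 83.6 FPKM.

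With limma, 0 of the 9 members tested passed in any of the 7 comparisons among these groups. Of the 10986 genes tested, 0.0% passed for all Hep-Orgs against Pri-Hep and for P10 against Pri-Hep, P5 against P1 and P10 against P1, 0.0091% (1 gene) for P1 and for P5 against Pri-Hep, and 0.0273% (3 genes) for P10 against P5. Over the 63 tests of members the log2 fold change ran from -0.15 to 0.14, the widest 95% limits were -0.33 and 0.32, and the smallest adjusted p was 0.391. An unadjusted p under 0.05 was found in 5 of the 63 tests: 1 for all Hep-Orgs against Pri-Hep, 1 for P1, 2 for P5 and none for P10 against Pri-Hep, and 1 for P5 against P1. Across all genes that share was 8.79%, 8.29%, 10.8%, 6.64% and 3.97% in these 5 comparisons, and 8.98% and 11.5% for P10 against P1 and against P5. Limma-voom on the recovered fragment counts also called 0 members. It called 0.109% of all genes for all Hep-Orgs against Pri-Hep, 0.273%, 0.355% and 0.0% for P1, P5 and P10 against Pri-Hep, 0.0% for P5 against P1, 0.264% for P10 against P1 and 0.255% for P10 against P5, and its unadjusted p was under 0.05 for 0 to 2 members a comparison. None of the 27 further Hippo genes or 15 further YAP target genes tested passed either. Pairs of libraries of the same group differed by a chi-square per degree of freedom of 1.91 to 3.20 (12 pairs), and pairs of different groups by 1.79 to 4.72 (54 pairs), so libraries of different groups were about as alike as replicates. Mesenchymal markers summed to 1.46 to 2.00 and macrophage markers to 7.34 to 9.86 FPKM, with Adgre1, Clec4f, Cd5l and Timd4 at 0.

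The Smart-Seq libraries address whether the 3 shapes of early Hep-Orgs differ. With 1 library per shape there was no replicate check and no test. Log2 ratios are of FPKM + 1, so for low genes they understate the ratio of the FPKM printed. The 95% intervals are centred on these log2 ratios, with a width from counting error at the estimated depth only. They need not hold the ratio of the FPKM themselves. Axl was the member that stood out. It was at 103 FPKM in grape-like, 22.6 in intermediate and 16.6 in round-like Hep-Orgs, a log2 ratio of 2.56 (2.51 to 2.61) for grape-like against round-like. It was the highest member in the grape-like library, while in both bulk tables it was the lowest.

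The coactivator Yap1 was at 20.9, 28.4 and 33.1 FPKM in the order grape-like, intermediate, round-like, a log2 ratio of -0.64 (-0.68 to -0.60) for grape-like against round-like. Wwtr1 was at 11.5, 10.3 and 14.7 FPKM. Yap1 was thus 1.82, 2.76 and 2.25 times as high as Wwtr1 in the 3 libraries. Tead1 was at 10.9, 6.33 and 9.08 FPKM and Tead2 at 9.55, 9.05 and 11.04 FPKM. Tead1 held the largest TEAD share in the grape-like library (41.8%) and Tead2 in the intermediate and the round-like library (38.5% and 38.2%). Tead4 was low, at 0.625, 1.30 and 2.51 FPKM, with a log2 ratio of -1.11 (-1.44 to -0.78) for grape-like against round-like. Without the added 1, its FPKM differed 4.01-fold between these 2 libraries. Tead4 held 2.41%, 5.56% and 8.68% of the summed TEAD FPKM.

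The remaining members did not share 1 order. Ajuba was at 2.42, 6.17 and 15.8 FPKM in that order, a log2 ratio of -2.30 (-2.46 to -2.14) between the outer shapes and -1.23 for intermediate against round-like. Its FPKM differed 6.54-fold between the outer shapes. Amotl2 had the same order at 8.06, 11.2 and 13.7 FPKM, with a ratio of -0.70. Ankrd1 was highest in the intermediate library, at 9.14, 24.8 and 9.96 FPKM, and its ratio was 1.23 (1.11 to 1.36) for intermediate against round-like. Grape-like against round-like gave -0.11 (-0.27 to 0.04) for Ankrd1, so no difference was detectable between these libraries at this depth. Lats2 was at 8.95, 5.24 and 6.07 FPKM, highest in the grape-like library.

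**Figure D5:**
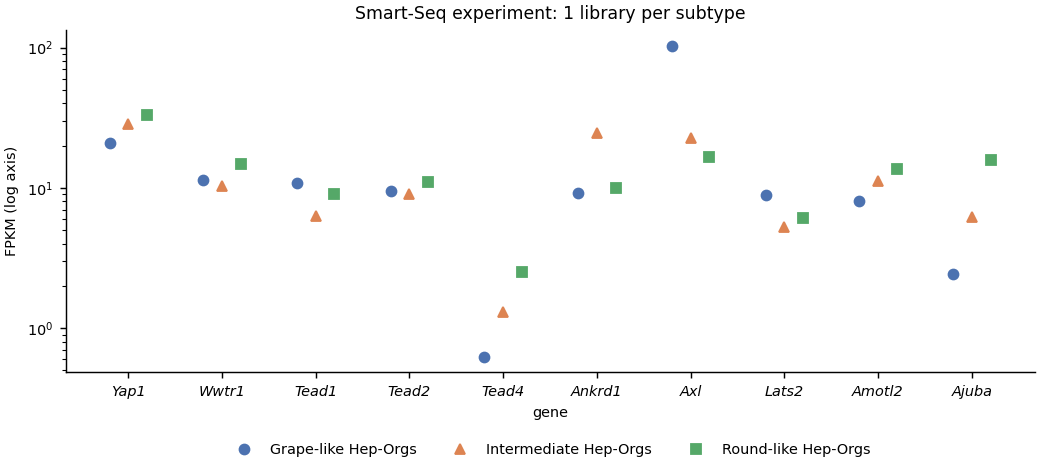
FPKM of each of the 10 members in the 3 Smart-Seq libraries (grape-like, intermediate, round-like; 1 each, log axis). Axl falls from 103 to 16.6 FPKM and Ajuba climbs from 2.42 to 15.8 FPKM from grape-like to round-like, while Ankrd1 is highest in the intermediate library at 24.8 FPKM.

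At a threshold of 2-fold on the FPKM + 1 scale, grape-like against round-like had 1 of 10 members higher (Axl) and 2 lower (Ajuba and Tead4), where 12.9% of 12595 genes were higher and 8.82% lower. Intermediate against round-like had 1 higher (Ankrd1) and 1 lower (Ajuba), against 3.85% and 2.54% of genes. Grape-like against intermediate had 1 higher (Axl) and 2 lower (Ankrd1 and Ajuba), against 9.71% and 7.15%. The members' median log2 ratio was -0.26, -0.27 and -0.18 in these comparisons, beside -0.13, -0.12 and 0.03 over all genes.

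Of the 29 further Hippo genes, 2 were at least 2-fold higher and 3 lower in grape-like than in round-like Hep-Orgs. Over all 12595 genes the shares were 12.9% higher and 8.82% lower. They were 3.85% and 2.54% for intermediate against round-like, and 9.71% and 7.15% for grape-like against intermediate. Counts near these shares are not a result about the lists. The atypical cadherin genes Fat4 and Dchs1, a receptor and its ligand, had log2 ratios of 1.23 and 1.05, and Wwc1, the polarity gene Crb3 and Vgll4 had -2.32, -1.85 and -1.52. Wwc1 was at 8.71, 35.4 and 47.7 FPKM in the 3 shapes and Mob1a at 55.6, 37.5 and 48.7 FPKM. Against the intermediate library, the grape-like library had higher Map4k4 (1.26), Fat4 (1.01) and Dchs1 (1.00) and lower Wwc1 (-1.90) and Crb3 (-1.37), and intermediate against round-like had none past the threshold. Of the 18 further YAP target genes, 3 were higher and 5 lower in grape-like than in round-like Hep-Orgs, beside 12.9% and 8.82% of all genes. Ccn2 was at 4.22, 19.4 and 77.7 FPKM and Ccn1 at 28.6, 53.3 and 84.0 FPKM, both highest in the round-like library, with log2 ratios of -3.91 and -1.52. Fjx1 and F3, tissue factor, were also lower (-1.70 and -1.29). Ccdc80, Igfbp3 and Myof were higher (2.17, 1.46 and 1.14), with Ccdc80 at 266, 62.3 and 58.5 FPKM. Intermediate against round-like had 4 targets lower and none higher, namely Ccn2 (-1.95), Fjx1 (-1.75), Nt5e (-1.19) and Crim1 (-1.04). Grape-like against intermediate had Ccdc80 (2.08) and Igfbp3 (1.66) higher and F3 (-2.04) and Ccn2 (-1.96) lower.

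Markers of other cell types differed between the same libraries. The sum of 10 Kupffer cell and macrophage markers was 9390, 2728 and 1475 FPKM in the grape-like, the intermediate and the round-like library. All 10 were at least 2-fold higher in grape-like than in round-like, where 12.9% of all genes were. Stellate and mesenchymal markers (10 genes) summed to 1783, 440 and 374 FPKM, with 9 of 10 at least 2-fold higher, and that of 10 endothelial markers 158, 74.0 and 39.7 FPKM, with 8 of 10 higher. No marker of these lists was at 0 in any of the 3 libraries. Macrophages and mesenchymal cells are known to carry Axl and Ccdc80 RNA, respectively, and the part of these cells in the values of Axl, Ccdc80 and the other members was not tested. Hepatocyte markers summed to 5775, 10237 and 1388 FPKM and cholangiocyte markers to 944, 3493 and 2880 FPKM. Krt19 was at 9.86, 208 and 272 FPKM in the 3 libraries.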

How the data were processed

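Expression was measured by poly(A) RNA sequencing in 24 mouse libraries. The authors deposited FPKM per gene in 3 tables; per the labels, featureCounts 2.0.3, edgeR 3.40.2 and mm10 were used, and the strand setting of the counting and the aligner are not given in the sources used here. In the hepatocyte table FPKM times gene length gave whole fragments (tolerance 0.05) for all values. For the other tables depth was estimated from the steps between low values and is approximate.

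Genes with at least 1 FPKM in at least 3 libraries were tested with limma 3.58.1 (R 4.3.3) on log2(FPKM + 1), trend on, all groups of a table in 1 fit, two-sided, with Benjamini-Hochberg adjustment over all genes and a threshold of 0.05. Each group had 3 libraries. A figure legend of the study gives the numbers as mice and its methods speak of independent cultures, so p-values may measure the spread between cultures. In the hepatocyte table Yap1 and Amotl2 varied by no more than counting error, and the other members by more. A very small p-value may therefore not measure variation between mice. Same-numbered libraries did not deviate together (median r = -0.0016 over 18 pairs in the hepatocyte table and -0.0063 over 9 pairs in Cho-Orgs), and the main fit had no block. Smart-Seq groups had 1 library each and no test. Python 3.11.15, numpy 2.4.6, pandas 2.3.3 and matplotlib 3.10.9 were used. The fitting script was tested on simulated data.

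The members and the gene lists were chosen with earlier results of these data known. All members were described; from the 2 further lists the text names the 2 genes with the highest mean level in a table and, per comparison, up to 4 in each direction with the largest change past the threshold. For Yap1 and Wwtr1 the 3 genes with the highest Pearson correlation in Cho-Orgs were taken. Coordinates of genes are those of the hepatocyte table (mm10), and those of 9 of the 10 members equal GENCODE M21. Sequences are RefSeq's on GRCm38.p6. Yap1 and Tead2 share 116 and 13 exon bases with opposite-strand genes (Gm20416 and Cd37).

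Alternatives were a pseudocount of 0.1, no filter or a stricter filter on low values, TPM, median-ratio size factors, only the groups compared, the replicate number as a block, limma-voom on fragments, and each library left out. Leaving out libraries for the TEAD shares was added after seeing the data.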

Additional observations from a re-analysis of the deposited data

Results flagged for a closer look

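The P5 and P10 libraries did not overlap in Axl in the groups labelled Hep-Orgs or in Cho-Orgs. P10 was on the higher side in Hep-Orgs and on the lower side in Cho-Orgs. In Hep-Orgs it was at 0.518 to 0.524 FPKM in the P10 libraries and at 0.389 to 0.450 FPKM in the P5 libraries. In Cho-Orgs it was at 0.374 to 0.512 FPKM at P10 (mean 0.423 FPKM) and at 0.803 to 1.28 FPKM at P5. The difference between Hep-Orgs and Cho-Orgs was not tested, since the tables were normalised separately. Axl was below the filter in both tables, and with all genes above 0 FPKM the change from P5 to P10 was 0.11 (log2, adjusted p = 0.523, limma) in Hep-Orgs and -0.54 (adjusted p = 0.0181) in Cho-Orgs. The change in Hep-Orgs did not pass.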

How the results depend on the processing

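The number of members that passed stayed within 1.5 times the reported count in all 10 tested comparisons under every alternative run, with 0 in the hepatocyte table throughout. With each library left out it was 6 to 8 for Cho-Orgs P5 against P0, 8 for P10 against P0 and 4 to 6 for P10 against P5. With the replicate number as a block it was 7, 8 and 5, and the calls lost were Wwtr1 for P10 against P5 (adjusted p = 0.0604) and, in the further lists, Amot for P5 against P0 (adjusted p = 0.0716). The count of further YAP target genes that passed between P5 and P10 was 9, with 5 at a mean of at least 5 FPKM and 14 with only the groups compared. Directions that turned belonged to differences that had not passed: Tead1 for P5 against P0 was 0.024 after rescaling to TPM and ran from -0.053 to 0.049 with a library left out, and Yap1 for P10 against P0 was -0.032 with median-ratio scaling. With a library left out, Ankrd1 for P5 against P0 ran from -0.14 to 0.72, Tead4 for P10 against P5 from -0.079 to 0.041, and Wwtr1 for all Hep-Orgs against Pri-Hep from -0.013 to 0.010. The members' median for intermediate against round-like was -0.13 with median-ratio scaling in place of -0.27, and that for grape-like against intermediate was -0.097 after rescaling to TPM in place of -0.18. Of the Smart-Seq ratios and medians recomputed under alternatives, 75 moved beyond their counting error, 99 did not, and none changed sign. The cause was not tested. With 3 libraries a group and FPKM only, small steps such as that of Wwtr1 are at the limit of what these tables show, and the Smart-Seq values rest on single libraries.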

Other observations

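Over the 9 Cho-Orgs libraries, the genes whose log2(FPKM + 1) was most like that of Yap1 were Hapstr1 (Pearson r = 0.993), Tert (0.992) and Gbp4 (0.990), and 365 of 11593 genes had an r over 0.9. For Wwtr1 they were Gfer (0.997), Tmem43 (0.997) and Trim16 (0.995), with 1354 genes over 0.9. These correlations describe libraries that share their passages and were not tested. The TEAD motif was found in the windows of 8 of 24 further Hippo genes (33.3%) and 3 of 11 further YAP target genes (27.3%) that had one, beside 14.4% of all genes. It was also found in 3 of 6 stellate and mesenchymal markers and 1 of 8 hepatocyte markers with a window, and in none of the cholangiocyte, macrophage, endothelial and proliferation markers.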
